A study of Mus musculus with 10 samples.

Results

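The genes described here are 29 genes of sterol and fatty acid synthesis, chosen by name: the enzymes that build cholesterol, the enzymes that build and desaturate long-chain fatty acids, their main transcriptional regulators and a sterol carrier. Of these, 28 were among the 37991 gene identifiers of the deposited expression table and are described below, and Hmgcs1 was not analysed here. All 28 had a mean of at least 1 FPKM (sequenced fragments scaled to transcript length and library size) over the libraries and were among the 12054 genes tested. RNA came from primary keratinocytes, the main cells of the epidermis, which were cultured from mouse skin taken at postnatal day 4 to 5. All libraries carry the mutant allele Bcl10tm1Mak, either on both copies (knockout) or on 1 copy (heterozygous). The heterozygous cells are therefore not wild type, and no wild-type library was included. Cells grew on collagen in serum-free medium with 0.05 mM calcium, and were left unstimulated or exposed for 5 h to recombinant mouse IL-17A at 200 ng/mL. Each of 2 cultures labelled knockout and 3 labelled heterozygous, identified by genotype and replicate number, gave 1 unstimulated and 1 treated library, 10 in all. Whether cultures come from separate animals is not stated, and the spread behind the p-values may be technical in part.

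Cholesterol and fatty acids are built from the same precursor, acetyl-CoA. The sterol branch runs through mevalonate and isoprenoids to squalene, which is oxidised, cyclised and then trimmed to cholesterol. The genes of both branches are targets of the transcription factors SREBP1 and SREBP2, encoded by Srebf1 and Srebf2. These are made as membrane proteins that the escort protein SCAP carries out of the endoplasmic reticulum for cleavage when sterols are low, and that INSIG proteins hold back when sterols are high. In the epidermis, cholesterol, free fatty acids and ceramides together make up the lipid barrier of the outermost layer.

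The promoters of SREBP targets often hold, besides the sterol element, a CCAAT box (bound by NF-Y) or a GC box (bound by SP1), since SREBPs act together with these factors. RefSeq promoter windows on the build GRCm38.p6, from 250 bases before to 50 bases after a start, were matched to 22 of the 28 genes. Letters were searched on both strands, and CCAAT lay in a window of 19 of these 22 genes, against 41.1% of 27025 genes. A gene counted if any of its windows held the letters, and the 27025 genes include ones not tested here. Acly counted only through a match 37 bases after its start, and Dhcr7 only through its furthest downstream start. The GC box letters GGGCGG lay in 18 of 22 genes, against 38.2%. The letters CACGTG lay in 4 of 22 genes, against 8.09%, and TCACNCCAC, a form of the sterol element, in 0 of 22, against 1.44%. No other form of this element was searched, so the lack of a match does not show that it is absent. The 180 bases before the outermost annotated start of 4 genes are shown 5′ to 3′ on the gene's own strand. CCAAT and its reverse complement ATTGG are in capitals. Fasn and Acly are shown because they had the largest of the fatty acid differences described below, Insig2 because its difference ran the other way, and Mvk because it held 5 CCAAT boxes. Fasn (chr11:120824548-120824727, minus strand) has 3 boxes, of which a pair overlap, and Insig2 (chr1:121332590-121332769, minus strand) has 3. The windows at the other RefSeq starts of Insig2 held no CCAAT, and which start these cells use was not tested. Mvk lies at chr5:114444089-114444268 on the plus strand. Acly (chr11:100528001-100528180, minus strand) has none in these bases.
Fasn: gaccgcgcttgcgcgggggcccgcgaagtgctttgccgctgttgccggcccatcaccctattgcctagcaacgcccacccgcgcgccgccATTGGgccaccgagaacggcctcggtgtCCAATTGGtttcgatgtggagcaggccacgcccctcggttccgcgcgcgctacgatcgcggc
Acly: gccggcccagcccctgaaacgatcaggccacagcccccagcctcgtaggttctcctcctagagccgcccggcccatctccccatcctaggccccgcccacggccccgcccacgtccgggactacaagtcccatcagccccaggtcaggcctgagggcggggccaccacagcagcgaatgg
Mvk: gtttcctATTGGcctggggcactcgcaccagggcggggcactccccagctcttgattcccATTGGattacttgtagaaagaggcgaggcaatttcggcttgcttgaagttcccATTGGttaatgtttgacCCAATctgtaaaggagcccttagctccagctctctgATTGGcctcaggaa
Insig2: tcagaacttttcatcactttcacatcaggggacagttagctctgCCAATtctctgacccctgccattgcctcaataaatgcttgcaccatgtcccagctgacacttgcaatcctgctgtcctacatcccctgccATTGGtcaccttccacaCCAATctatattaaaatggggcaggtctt
A match of letters is a description of the sequence and does not show that a factor binds there.

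Estimated depth was 15.9 to 50.8 M fragments per library. The titles also carry a library number: 1 and 2 for knockout culture 1, 9 and 10 for knockout culture 2, 13 and 14 for heterozygous culture 1, and 33, 34, 37 and 38 for heterozygous cultures 2 and 3. Bcl10 itself was at 0.969 FPKM in the unstimulated library of knockout culture 1 and at 16.4 to 17.0 FPKM in the other knockout libraries. It was at 59.5 to 72.3 FPKM in the libraries numbered 33 to 38. The libraries labelled heterozygous culture 1, at 18.0 and 16.3 FPKM, therefore go against their label, and genotype results are given with and without them. All knockout cultures lie in the lower numbers, so library number, Bcl10 level and, for heterozygous cultures 2 and 3, genotype cannot be told apart. The unstimulated library of knockout culture 1 also stands apart, with 12.6% of its summed FPKM in 10 genes against 8.21% to 8.66% in the other libraries. Basal keratinocyte markers summed to 8643 to 12337 FPKM in every library.

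Levels spread widely between the genes. Scd2, a stearoyl-CoA desaturase, stood at 264 to 602 FPKM and above the other 27 genes in every library except the treated one of heterozygous culture 2. Fdps, which makes farnesyl diphosphate, the last common isoprenoid of several branches, was at 281 to 361 FPKM and above Scd2 in that library. Cyp51, the lanosterol demethylase, stood at 158 to 196 FPKM and Idi1, the isopentenyl diphosphate isomerase, at 129 to 166 FPKM. At the low end were Tm7sf2, a sterol reductase, at 3.43 to 4.23 FPKM and Insig2 at 6.40 to 9.85 FPKM. The 6 fatty acid genes took 0.220% to 0.264% of a library's summed FPKM in the libraries numbered 1 to 14 and 0.104% to 0.189% in those numbered 33 to 38. For the sterol enzymes these shares were 0.369% to 0.415% and 0.309% to 0.391%, so their ranges overlapped.

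**Figure D1:**
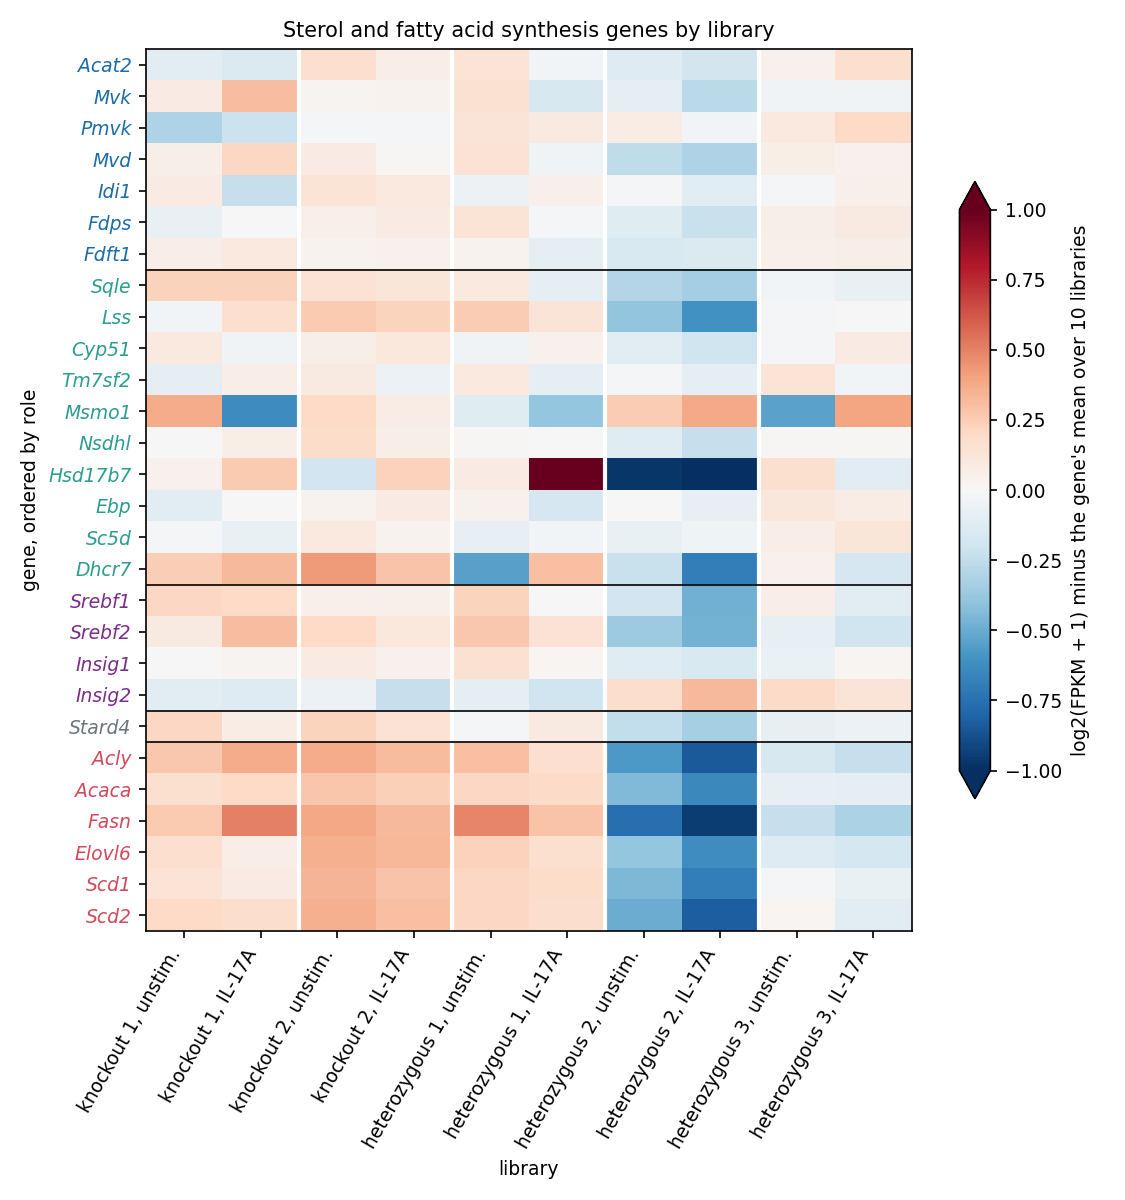
Difference of log2(FPKM + 1) from each gene's mean over 10 libraries (colour, drawn up to 1 in either direction, with larger differences in the end colours) for 28 genes in rows, ordered by role, and 10 libraries in columns. The fatty acid genes at the bottom are above their mean in the 6 libraries of the 3 cultures on the left, and lowest in heterozygous culture 2; Hsd17b7 and Msmo1 change between libraries of 1 culture.

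The clearest pattern among the 28 genes was a split between cultures in the fatty acid genes. All 6 of them had higher levels in every library numbered 1 to 14 than in every library numbered 33 to 38, with a median log2 difference of culture means of 0.57 against 0.19 over the 28 genes and -0.02 over all tested genes. By limma with Benjamini-Hochberg adjustment, 4 of the 6 passed the threshold of adjusted p 0.05, and all 6 had an unadjusted p under 0.05. In all, 6 of the 28 genes passed, 5 higher and 1 lower in the libraries numbered 1 to 14. The split runs through much of the transcriptome, as 25.0% of all tested genes passed, 12.4% higher and 12.6% lower (45.0% had an unadjusted p under 0.05, as did 13 of the 28 genes), so the count for the 28 genes is near the background. Ranges that did not overlap were found for 8 of the 28 genes with the lower numbers higher, against 17.4% of tested genes, and for 1 with them lower, against 18.4%. These are bulk levels, in which fewer cells of a type and less RNA per cell cannot be told apart.

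Fasn, the fatty acid synthase that builds palmitate, had the largest difference. It was at 84.7, 92.8 and 99.3 FPKM in unstimulated knockout cultures 1 and 2 and heterozygous culture 1, and at 101, 88.6 and 86.1 FPKM in their IL-17A-treated libraries. In heterozygous cultures 2 and 3 it was at 41.6 and 60.1 FPKM unstimulated and 36.2 and 56.4 FPKM with IL-17A. The groups did not overlap, and heterozygous culture 2 was below heterozygous culture 3 in both conditions. The means were 92.1 ± 6.81 (SD, n = 6 libraries) and 48.6 ± 11.5 FPKM (SD, n = 4 libraries), and the log2 difference over culture means was 0.94 (SE 0.16, adjusted p = 0.022 by limma, 3 against 2 cultures).

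Acly, the ATP citrate lyase that supplies cytosolic acetyl-CoA to both branches, followed the same order. It was at 116, 124 and 118 FPKM unstimulated and 124, 120 and 108 FPKM with IL-17A in the 3 cultures with lower numbers. In heterozygous cultures 2 and 3 it was at 64.1 and 85.9 FPKM unstimulated and 53.1 and 81.6 FPKM with IL-17A. The lowest of the 6 libraries with lower numbers was thus still above the highest of the other 4, and the log2 difference was 0.75 (SE 0.15, adjusted p = 0.026 by limma). Acaca, the acetyl-CoA carboxylase that makes malonyl-CoA, was at 13.1, 14.3 and 13.6 FPKM unstimulated and 13.5, 13.9 and 13.4 FPKM with IL-17A in the cultures with lower numbers. It was at 8.33 and 7.08 FPKM in heterozygous culture 2 and at 10.9 FPKM in both libraries of heterozygous culture 3, a log2 difference of 0.53 (SE 0.14, adjusted p = 0.039 by limma). The 6 libraries with lower numbers were within a narrow band (SD 0.418 FPKM), while heterozygous cultures 2 and 3 differed from each other.

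Elovl6, which lengthens palmitate to stearate, was at 24.6, 28.2 and 25.6 FPKM unstimulated and 22.9, 27.7 and 24.4 FPKM with IL-17A in knockout cultures 1 and 2 and heterozygous culture 1. It was at 16.4 and 13.8 FPKM in heterozygous culture 2 and 19.8 and 19.1 FPKM in heterozygous culture 3, a log2 difference of 0.55 (SE 0.13, adjusted p = 0.031 by limma). The desaturases Scd1 and Scd2, which put the double bond into stearate and palmitate, did not pass the threshold. Scd1 was at 71.4 to 85.3 FPKM in the libraries with lower numbers, at 49.0 and 41.3 FPKM in heterozygous culture 2 and at 66.3 and 63.8 FPKM in heterozygous culture 3 (log2 0.51, SE 0.16, adjusted p = 0.056 by limma). Scd2 was at 537, 602 and 542 FPKM unstimulated and 530, 577 and 529 FPKM with IL-17A in the cultures with lower numbers. In heterozygous cultures 2 and 3 it was at 332 and 475 FPKM unstimulated and 264 and 436 FPKM with IL-17A (log2 0.59, SE 0.18, adjusted p = 0.054 by limma). Both genes kept the order of the others, with heterozygous culture 2 lowest and heterozygous culture 3 between it and the rest.

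**Figure D2:**
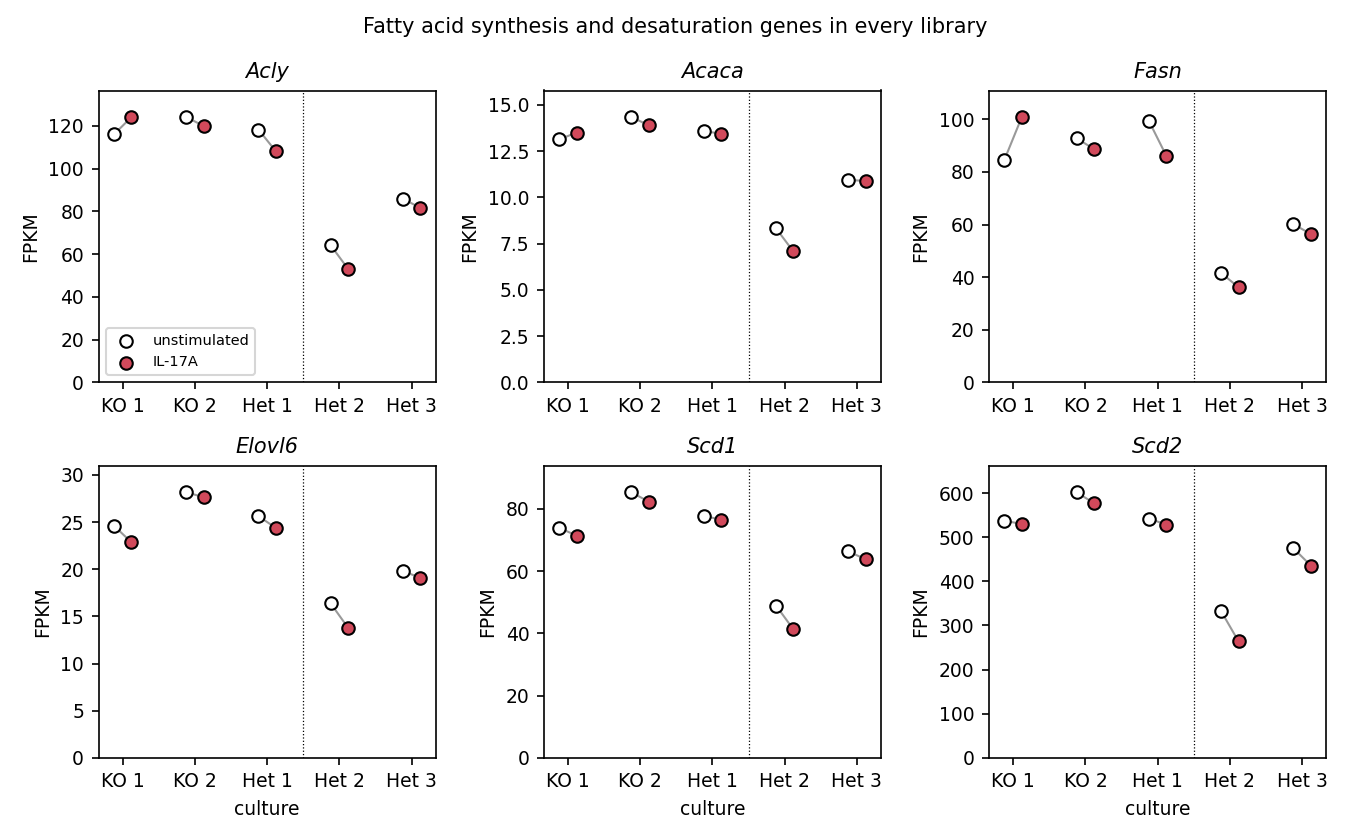
FPKM of the 6 fatty acid genes (vertical axes from 0) in 5 cultures, with open points unstimulated, filled points IL-17A and a line joining the libraries of 1 culture; the dotted line parts the library numbers 1 to 14 from 33 to 38. In each panel both libraries of heterozygous (Het) culture 2 are lowest and those of heterozygous culture 3 come next, for Fasn at 36.2 to 41.6 and 56.4 to 60.1 FPKM against 84.7 to 101 FPKM in the other cultures.

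The size of the difference depended on the culture. As ratios of culture means to heterozygous culture 1, Fasn was at 0.419 in heterozygous culture 2 and 0.629 in heterozygous culture 3, and at 1.00 and 0.978 in knockout cultures 1 and 2. Acly was at 0.518 and 0.740 in heterozygous cultures 2 and 3. Scd2 was at 0.556 in heterozygous culture 2 but 0.850 in heterozygous culture 3. Over the 28 genes, heterozygous culture 2 had the lowest culture mean in 23, against 35.5% of all tested genes, and heterozygous culture 3 in 0, against 8.61%. The calls changed with the cultures used, among the 28 genes as over all genes. Without heterozygous culture 1, heterozygous culture 2, knockout culture 1 or knockout culture 2, 0 of the 28 genes passed, against 1.48%, 0.348%, 3.31% and 2.53% of all tested genes. Without heterozygous culture 3, 14 of the 28 passed, against 39.3% of all tested genes. Fasn kept a log2 difference of 0.65 to 1.22 when any 1 culture was left out, with an adjusted p by limma of 0.011 without heterozygous culture 3 and 0.051 to 0.070 otherwise.

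Among the regulators, Srebf2 and Insig2 passed in opposite directions. Srebf2 was at 79.9, 85.9 and 90.7 FPKM unstimulated and 92.8, 80.5 and 83.0 FPKM with IL-17A in the cultures with lower numbers. It was at 58.0 and 70.6 FPKM unstimulated and 53.8 and 65.1 FPKM with IL-17A in heterozygous cultures 2 and 3, so the groups did not overlap (log2 0.47, SE 0.10, adjusted p = 0.028 by limma). Insig2, which retains the SCAP complex in the endoplasmic reticulum, was the 1 gene of the 28 that was higher in all 4 libraries numbered 33 to 38. In the cultures with lower numbers it was at 7.01, 7.30 and 7.12 FPKM unstimulated and 6.90, 6.40 and 6.55 FPKM with IL-17A. It was at 8.77 and 9.85 FPKM in heterozygous culture 2 and 8.86 and 8.48 FPKM in heterozygous culture 3 (log2 -0.34, SE 0.07, adjusted p = 0.027 by limma). With values rescaled to TPM, which sum to the same total in every library, the adjusted p of Insig2 was 0.055 by limma.

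Srebf1, whose product favours fatty acid genes, was at 17.1, 15.3 and 17.3 FPKM unstimulated and 17.1, 15.3 and 14.7 FPKM with IL-17A in the cultures with lower numbers. In heterozygous cultures 2 and 3 it was at 12.8 and 15.5 FPKM unstimulated and 10.3 and 13.6 FPKM with IL-17A. The ranges overlapped through heterozygous culture 3, and Srebf1 did not pass the threshold (log2 0.30, adjusted p = 0.086 by limma). Insig1, itself a sterol-responsive SREBP target, was at 59.2, 62.7 and 66.0 FPKM unstimulated and 60.4, 61.2 and 60.2 FPKM with IL-17A in the cultures with lower numbers. It was at 54.4 and 53.4 FPKM in heterozygous culture 2 and 56.5 and 60.2 FPKM in heterozygous culture 3 (log2 0.13, adjusted p = 0.21 by limma). Stard4, a soluble carrier that moves cholesterol between membranes, was at 38.9, 39.3 and 33.2 FPKM unstimulated and 35.3, 37.0 and 35.6 FPKM with IL-17A in the cultures with lower numbers. It was at 28.0 and 26.4 FPKM in heterozygous culture 2 and 31.5 and 32.1 FPKM in heterozygous culture 3, without overlap (log2 0.30, adjusted p = 0.059 by limma).

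Median differences were smaller for the cholesterol enzymes. Of the 7 genes from acetyl-CoA to squalene, 0 passed by limma and 0 had an unadjusted p under 0.05, where 25.0% and 45.0% of all tested genes did, and their median log2 difference was 0.08. Mvd, the mevalonate diphosphate decarboxylase, had the largest difference of these (log2 0.19). It was at 95.4, 96.6 and 101 FPKM unstimulated and 106, 92.3 and 88.6 FPKM with IL-17A in the lower numbers, at 76.5 and 73.5 FPKM in heterozygous culture 2 and at 95.4 and 94.1 FPKM in heterozygous culture 3. Thus heterozygous culture 3 lay within the range of the lower numbers for Mvd, and only heterozygous culture 2 was below it. Of the 10 genes from squalene to cholesterol, 0 passed by limma, 3 had an unadjusted p under 0.05 (Sqle, Lss and Dhcr7), against the same shares of all tested genes, and the median was 0.12.

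Sqle, squalene epoxidase, and Lss, lanosterol synthase, catalyse successive steps. Sqle had a log2 difference of 0.30 (adjusted p = 0.086 by limma). Lss was at 37.1 to 45.5 FPKM in the lower numbers, 28.4 and 24.5 FPKM in heterozygous culture 2 and 37.4 and 37.7 FPKM in heterozygous culture 3 (log2 0.42, adjusted p = 0.079 by limma). As for Mvd, heterozygous culture 2 was apart and heterozygous culture 3 was not. Hsd17b7, a sterol ketoreductase, had the largest estimate of the branch (log2 0.84, SE 0.35, adjusted p = 0.12 by limma). It was at 16.7, 14.0 and 17.2 FPKM unstimulated and 19.6, 19.1 and 50.3 FPKM with IL-17A in the lower numbers. It was at 7.73 and 7.09 FPKM in heterozygous culture 2 and at 18.1 and 14.9 FPKM in heterozygous culture 3. A single library at 50.3 FPKM and a low heterozygous culture 2 make up this estimate, and the ranges overlapped.

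**Figure D3:**
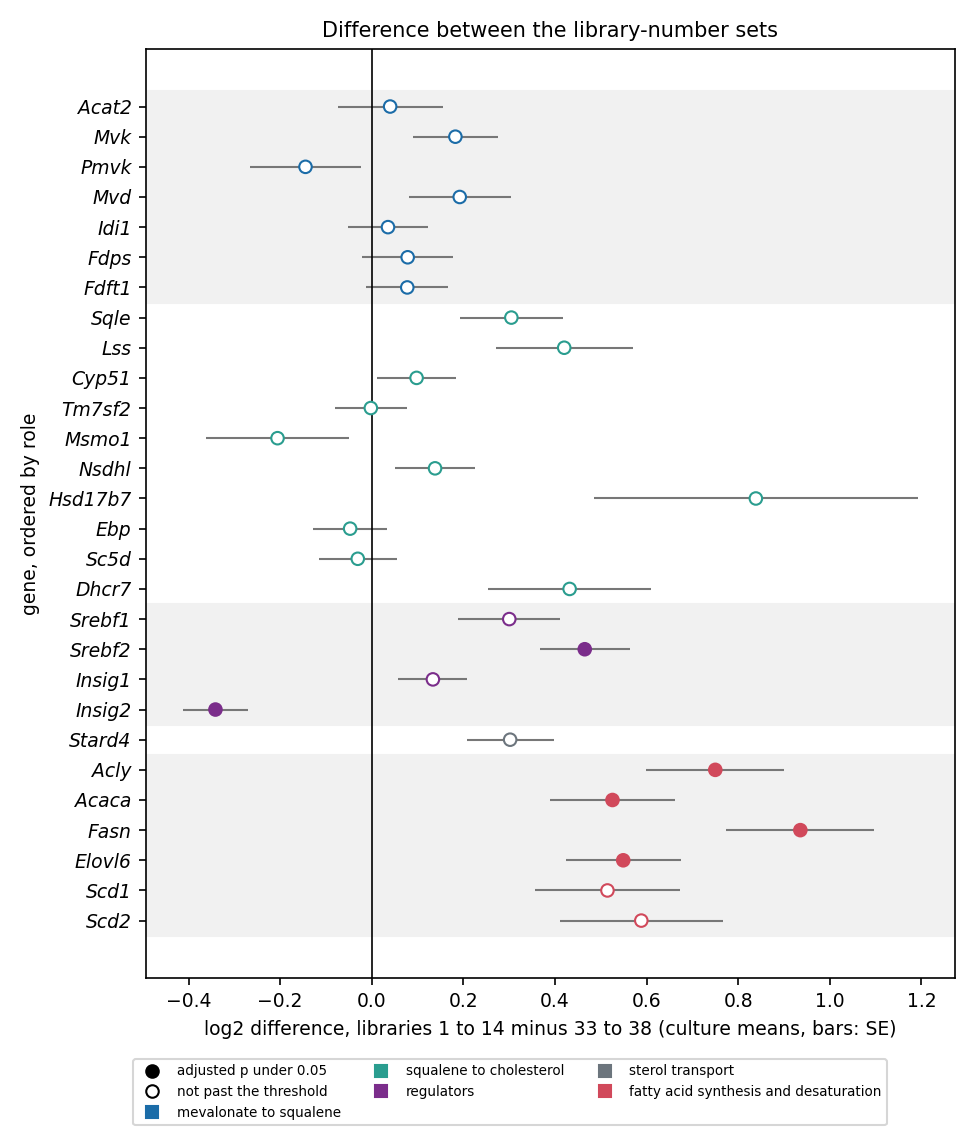
Log2 difference of culture means, libraries numbered 1 to 14 minus 33 to 38 (horizontal axis, 3 against 2 cultures, bars are SE), for 28 genes in rows ordered by role, with filled points past adjusted p 0.05 by limma. The fatty acid genes lie at 0.51 to 0.94 and Insig2 lies at -0.34. Enzymes up to squalene lie at -0.14 to 0.19 and those after it at -0.21 to 0.84, with Hsd17b7 highest.

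Other lipid genes that are not among the 28 were read from a fixed list of 76, of which 64 were tested. Of these, 14 were higher and 4 lower in the libraries numbered 1 to 14, where 12.4% and 12.6% of all tested genes were, so the total of 18 is near the background of 25.0%. In the other 7 comparisons 0 of the 64 passed. Of 12 tested regulators in this list, 3 were higher in the libraries numbered 1 to 14 and 0 lower. The median log2 difference of the 12 was -0.03. Scap, the SREBP escort, was at 23.0 to 29.6 FPKM in the lower numbers and 15.5 to 19.6 FPKM in the others (log2 0.53, adjusted p = 0.024 by limma). Mbtps1, the first of the proteases that cleave SREBPs, was higher by 0.40 on the log2 scale (adjusted p = 0.026 by limma). Fads1 and Fads2, the desaturases of polyunsaturated fatty acids, were higher by 0.50 and 0.61 on that scale, and Dgat2, which makes triglycerides, by 0.66. Elovl4, at 21.9 to 27.1 FPKM in the lower numbers and 15.2 to 18.8 FPKM in the others, and Fabp5, at 69.6 to 81.2 and 46.9 to 56.5 FPKM, were also higher. Elovl7, another elongase, went the other way (log2 -0.57, adjusted p = 0.017 by limma). So did Cers3, the ceramide synthase of the epidermal barrier (log2 -0.45), and Erg28, a sterol scaffold protein (log2 -0.46). Acsl3 was lower too, at 31.5 to 35.0 FPKM against 40.5 to 43.2 FPKM. The genes named in this paragraph were not picked by smallest p alone.

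Markers of other cells were read beside this split. The 5 melanocyte markers summed to 168 to 196 FPKM in the libraries numbered 1 to 14 and 315 to 406 FPKM in those numbered 33 to 38. The 7 basal keratinocyte markers summed to 10979 to 12337 and 8643 to 10174 FPKM, and the 6 differentiation markers in the table to 99.8 to 156 and 69.7 to 81.9 FPKM. All 5 melanocyte markers were higher without overlap in the libraries numbered 33 to 38. Of the basal markers 5 of 7 were lower there without overlap, and Trp63 and Lamb3 overlapped. Of the differentiation markers 3 of 6 were lower there without overlap, among them Sbsn, which makes up most of the sum, while Krt1, Krt10 and Ivl overlapped. The part of these cell markers in the split was not tested. Cells specialised for lipid synthesis were near absent by their markers. The 8 sebocyte markers summed to 1.04 to 1.88 and 0.559 to 1.90 FPKM, with Plin5, Awat1 and Elovl3 at 0 in every library. The adipocyte markers summed to at most 3.04 FPKM, with 5 of 6 at 0, and 5 of 6 immune markers were at 0. Fibroblast markers reached 28.7 FPKM in knockout culture 2, which had the highest culture mean for 12 of the 28 genes (18.8% of all tested genes), and their part in that was not tested.

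Between the genotypes as labelled, no sterol or fatty acid gene passed. In unstimulated cells 0 of the 28 genes and 0.0% of all tested genes passed by limma, with 1 of the 28, Stard4, and 4.66% of all tested genes (562) under an unadjusted p of 0.05. With IL-17A 0 of the 28 passed, against 0.0249% of all tested genes, with 2 of the 28, Sqle and Mvk, and 8.14% of all (981) under an unadjusted p of 0.05. Over culture means, 2 knockout against 3 heterozygous, 0 of the 28 and 0.0% of all passed, with 1 of the 28, Dhcr7, and 4.82% of all (581) under an unadjusted p of 0.05. The median log2 difference of the 28 genes over culture means was 0.15, against -0.02 over all tested genes, and that of the fatty acid genes was 0.41.

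These medians followed which heterozygous cultures were used. Without the libraries labelled heterozygous culture 1, the median of the 28 genes over culture means was 0.21. The log2 difference of Fasn was then 0.93 (SE 0.19, adjusted p = 0.070 by limma). Over culture means this is the same test as that between the library numbers without heterozygous culture 1, not a separate result. In that setting 0 of the 28 genes passed over culture means (1.48% of all tested genes, 0.754% higher and 0.721% lower) and in unstimulated cells (0.97%). With IL-17A, 1 passed, Fasn (log2 1.05, adjusted p = 0.0498 by limma), against 6.65% of all tested genes, 3.79% higher and 2.86% lower. Against heterozygous culture 1 alone, within the libraries numbered 1 to 14, the median of the 28 genes over culture means was 0.03 and Fasn differed by -0.01 (SE 0.08). In that fit the lone heterozygous culture is assumed to vary like the knockout cultures. As ratios of culture means to heterozygous culture 1, the 6 fatty acid genes were at 0.942 to 1.12 in the knockout cultures.

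Sqle was the 1 gene of the 28 for which every knockout library was above every heterozygous library, against 3.09% of tested genes, and 0 of the 28 showed the reverse, against 2.21%. It was at 70.1 and 66.1 FPKM in the unstimulated knockout libraries and 70.0 and 64.9 FPKM with IL-17A. In heterozygous cultures 1, 2 and 3 it was at 63.9, 48.4 and 58.6 FPKM unstimulated and at 55.5, 46.7 and 56.6 FPKM with IL-17A. The knockout libraries sat just above the highest heterozygous one, and the log2 difference of culture means was 0.31 (SE 0.14, adjusted p = 0.61 by limma). Dhcr7, the last reductase of cholesterol synthesis, was at 38.5 to 43.6 FPKM in the knockout libraries. In heterozygous cultures 1, 2 and 3 it was at 21.8, 27.5 and 33.2 FPKM unstimulated and at 39.8, 19.5 and 28.6 FPKM with IL-17A. The treated library of heterozygous culture 1 lay within the knockout range (log2 0.53, SE 0.15, adjusted p = 0.61 by limma). Pmvk, the phosphomevalonate kinase, was at 39.8 to 49.0 FPKM in the knockout libraries and 48.7 to 57.1 FPKM in the heterozygous ones, with a log2 difference of -0.23 (adjusted p = 0.61 by limma). Set against heterozygous culture 1 alone, the 4 knockout libraries were all higher for Sqle (8.29% of tested genes) and all lower for Pmvk (7.65%). Sqle, Dhcr7 and Pmvk were picked out after their values were seen.

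**Figure D4:**
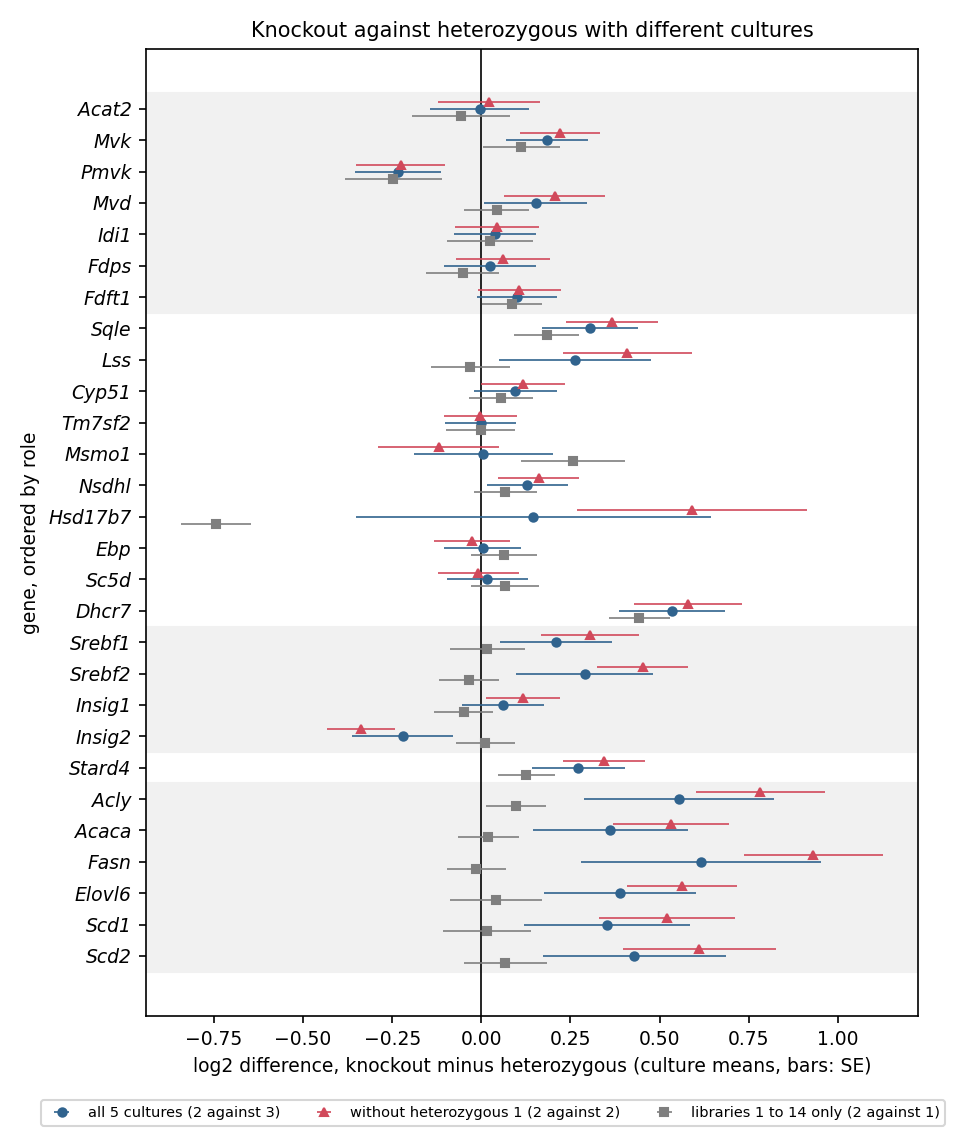
Log2 difference, knockout minus heterozygous, of culture means (horizontal axis, bars are SE) for 28 genes in rows ordered by role, with all 5 cultures (circles), without heterozygous culture 1 (triangles) and within library numbers 1 to 14 (squares). For Fasn these are 0.62, 0.93 and -0.01; the other fatty acid genes show the same order.

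With IL-17A for 5 h, no gene of the list passed the threshold. Of the 28 genes, 0 passed by limma in the heterozygous libraries (0.0083% of all tested genes), 0 in the knockout libraries (0.0249%), 0 for the difference between these responses (0.0%) and 0 in the average over 5 cultures (0.149%). An unadjusted p under 0.05 was found for 0, 0, 0 and 1 of the 28 genes and for 1.34%, 1.46%, 1.19% and 6.03% of all tested genes in these comparisons. In that average, 24 of the 28 estimates were below 0, with a median log2 change of -0.04, and over all tested genes 45.5% of estimates were above 0. All 4 regulators and all 6 fatty acid genes were among the 24. That gene was Srebf1 (log2 -0.14, SE 0.06, adjusted p = 0.82 by limma). It went from 12.8 to 10.3 FPKM in heterozygous culture 2 and from 17.3 to 14.7 FPKM in heterozygous culture 1, but stood at 17.1 FPKM in both libraries of knockout culture 1.

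The direction differed between cultures. With IL-17A, 24 of the 28 genes were lower in heterozygous culture 2 and 22 in heterozygous culture 1, where 53.9% and 52.7% of all tested genes were lower. In knockout culture 2 and heterozygous culture 3, 20 and 16 were lower, against 50.8% and 51.6% of all tested genes. In knockout culture 1, whose unstimulated library stands apart, 12 were lower, against 49.1%. Sqle, Elovl6, Scd1 and Scd2 were lower with IL-17A in all 5 cultures, against 4.29% of tested genes, and 0 of the 28 genes were higher in all 5, against 3.65%. The changes of these 4 genes were small, at -0.07, -0.10, -0.08 and -0.11 on the log2 scale, with adjusted p of 0.83 to 0.91 by limma. Scd2 went from 332 to 264 FPKM in heterozygous culture 2 and from 537 to 530 FPKM in knockout culture 1. Of the mevalonate genes, Mvk, the mevalonate kinase, and Idi1 had the largest averaged changes (log2 -0.05 each). Mvk was at 20.1, 19.4, 21.3, 17.8 and 18.5 FPKM unstimulated in knockout cultures 1 and 2 and heterozygous cultures 1, 2 and 3. With IL-17A it was at 23.8, 19.5, 17.0, 15.6 and 18.5 FPKM in the same order, so it was higher in knockout culture 1 and lower in heterozygous cultures 1 and 2. Without the unstimulated library of knockout culture 1, 0 of the 28 genes passed in any comparison in which it was left out.

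**Figure D5:**
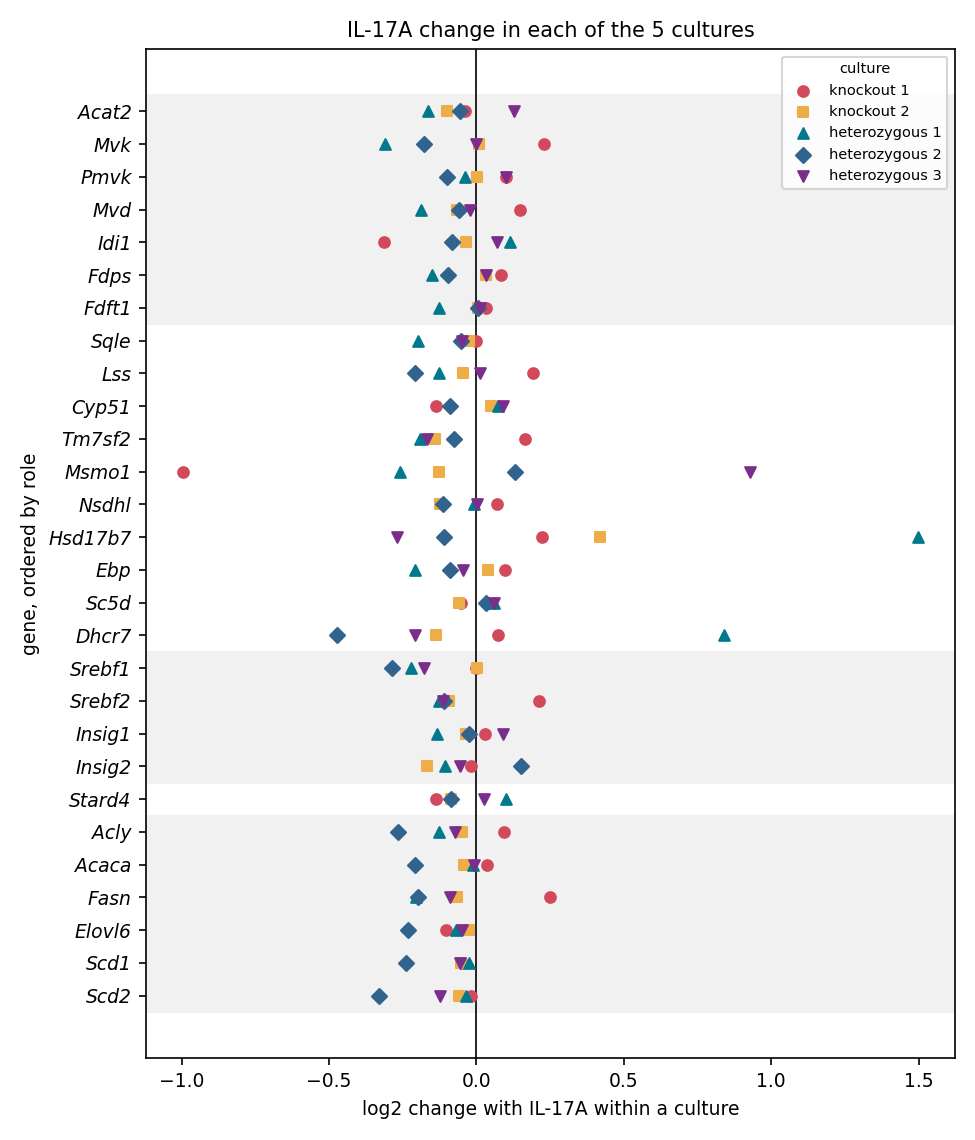
Log2(FPKM + 1) with IL-17A minus that without (horizontal axis) for 28 genes in rows ordered by role, 1 point for each of 5 cultures. Most points lie near 0 and those of heterozygous culture 2 lie mostly to the left; Msmo1 in knockout culture 1 and heterozygous culture 3, and Hsd17b7 and Dhcr7 in heterozygous culture 1, lie far from the rest.

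For 3 of the 28 genes the libraries of 1 culture differed by more than 1.5 times, against 14.9% of all tested genes, and all 3 act between squalene and cholesterol. Msmo1, the sterol C4-methyl oxidase, was at 111, 98.1, 78.3, 102 and 58.6 FPKM unstimulated in knockout cultures 1 and 2 and heterozygous cultures 1, 2 and 3. With IL-17A it was at 54.9, 89.9, 65.2, 112 and 113 FPKM in the same order. It was thus lower by a ratio of 2.01 in knockout culture 1 and higher in heterozygous culture 3, with no common direction. Hsd17b7 went from 17.2 to 50.3 FPKM in heterozygous culture 1, a ratio of 2.93, and Dhcr7 from 21.8 to 39.8 FPKM in the same culture, a ratio of 1.83. Averaged over 5 cultures, the log2 change with IL-17A was -0.06 (SE 0.24) for Msmo1, 0.35 (SE 0.25) for Hsd17b7 and 0.02 (SE 0.18) for Dhcr7. These 3 genes were picked by their largest change within a culture.

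Some values share sequence with neighbours. The model of Fdft1, squalene synthase, overlaps Ctsb on the opposite strand, which reached 92.3 FPKM, and the model of Tm7sf2 overlaps Vps51 on the same strand, which reached 4.84 FPKM. No source used here gives the strand setting of the counting, and the values of these genes, and of Cyp51 and Srebf1, which overlap Akap9 and Rai1, are uncertain to that extent.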

How the data were processed

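The authors deposited 1 table of FPKM values (fragments scaled to transcript length and library size) for 37991 Ensembl identifiers in 10 libraries, made with poly(A) selection from 100 ng of total RNA, per the labels' protocols. Per the submitters' processing notes, the tools named are HISAT2, SAMtools, StringTie and DESeq2 and the build is mm10. No source used here states versions, the strand setting or the annotation release. GENCODE M21 (GRCm38) gave a symbol for 32919 identifiers, and 17074 were at 0 throughout.

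Since these are not counts, log2(FPKM + 1) was tested with limma 3.58.1 (mean-variance trend, two-sided, Benjamini-Hochberg over the 12054 genes averaging 1 FPKM or more, threshold 0.05), and the script was tested on simulated data. This scale understates changes of low genes. Genotype, IL-17A and their interaction were fitted over 10 libraries with 4 group means, the average IL-17A change with culture as a block, and differences between genotypes or library numbers also over the 5 culture means. Same-numbered libraries of a genotype deviated together across genes (r = 0.227 in the knockout, 0.607, 0.488 and 0.137 in heterozygous cultures 1 to 3), so the numbers were taken to pair libraries within a genotype.

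Single-exon genes of 300 to 3000 bp, whose low values fall in part in steps of whole fragments, gave the estimated depth. At the depth chosen, 48.6% to 55.3% of these low values lay within 0.05 of a whole fragment, so the depths are approximate. At these depths 3 fragments in a gene of 1 kb equal 0.0590 to 0.188 FPKM, a floor for counting error only.

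The 29 genes, the other lists and the split by library number were chosen with earlier results of these data known. Values in every library are given for genes past the threshold in a comparison, for the 4 regulators and, by role, for the gene with the largest averaged IL-17A change and the largest difference between library numbers; other genes named with values were added after these were seen. Promoter windows are from RefSeq (GRCm38.p6). Alternatives covered the pseudocount, the filter on low values, TPM and median-of-ratios scaling, the trend, library weights, the replicate block and leaving out libraries or cultures.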

Additional observations from a re-analysis of the deposited data

How the results depend on the processing

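With a pseudocount of 0.1, median-of-ratios scaling, no trend or library weights, the same 6 genes passed between the library numbers. With TPM scaling 5 did, without Insig2, and with a mean filter of 5 FPKM 8 did, adding Scd1 and Scd2. Scaling, pseudocount, trend and mean filter settings are given without their calls over all tested genes, so these counts have no background beside them. Without these changes 25.0% of all tested genes passed. With no filter, or without heterozygous culture 1, heterozygous culture 2, knockout culture 1 or knockout culture 2, 0 passed. Without heterozygous culture 3, 14 passed and the median log2 difference was 0.31. Over all tested genes this comparison gave 3010 calls, 91 with no filter, 1548 with library weights and, with 1 culture left out, 42 (heterozygous culture 2) to 4747 (heterozygous culture 3).

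Library weights gave 7 calls among the 28 genes for IL-17A in the heterozygous libraries, and 8 (unstimulated), 9 (IL-17A) and 11 (culture means) between genotypes. These weights were 11.8 and 33.4 for heterozygous culture 3 and 0.197 to 1.14 for the other libraries, and their estimation stopped before it converged. Over all tested genes library weights gave 4656 and 11 calls for IL-17A in the heterozygous and knockout libraries (1 and 3 without weights). They gave 31 for its average (18 without) and 17 for the interaction (0 without). Between genotypes they gave 2929, 3551 and 5165 calls (0, 3 and 0 without weights), and leaving out heterozygous culture 1 gave 117, 802 and 178. Without both libraries of heterozygous culture 1, 1 gene passed between genotypes with IL-17A. Within library numbers 1 to 14 the median between genotypes was 0.0092 unstimulated and 0.054 with IL-17A. With 1 library left out, the median for IL-17A in the heterozygous libraries ran from -0.14 to 0.067, and for the difference in response from -0.060 to 0.20. The cause of these shifts was not tested.

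With the replicate block, fixed or random, 0 of the 28 genes passed for IL-17A in either genotype or for the interaction, as without it. Over all genes the fixed and random block gave 0 and 15 calls in the heterozygous libraries (1 without the block), 0 and 14 in the knockout (3 without) and 0 and 5 for the interaction (0 without). The average IL-17A change gave 0 calls over all genes without knockout culture 2, and 0 to 11 with 1 library left out. With 2 or 3 cultures a genotype, small changes of these genes may have gone undetected.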
